A study of Ovis aries with 8 samples.

Results

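Messenger RNA of 3 collagen genes, COL3A1, COL4A1 and COL6A1, and of the metalloproteinase inhibitor gene TIMP3 was measured in the hypothalamus of fetal sheep on a 1-colour Agilent expression microarray. These are 4 of the 872 genes named on the array. Every probe whose gene name or description in the array design names 1 of them was taken, which gave 8 of 15008 probes. Of these, 4 were named for COL3A1, 1 for COL4A1, 2 for COL6A1 and 1 for TIMP3. The study had 4 sets of twin fetuses, and each of the 8 fetuses gave 1 hypothalamus and 1 array. In each set, 1 fetus received estradiol-3-sulfate at 1 mg per day into the lateral cerebral ventricle from an osmotic mini-pump (treated, n = 4), and its twin was the control (n = 4). The controls are called untreated in the design text, while the treatment protocol gives them the same procedure with vehicle saline. They are called vehicle fetuses here. The infusion ran for 7 to 12 days in the first source and for 7 to 10 days in the second. All fetuses carried catheters; surgery took place at 120 to 127 days of gestation, and the hypothalami were collected when gestation had reached 130 to 134 days. The RNA had been stored for 7 years before labelling. Fetuses are numbered 1 to 4 in each group as labelled, and the labels do not say that equal numbers mark twins.

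Collagens are secreted proteins of 3 chains wound into a triple helix, built on a short repeat that holds glycine. COL3A1 encodes the chain of type III collagen, a fibril-forming collagen of soft tissue and vessel walls. COL4A1 encodes a chain of type IV collagen, the network of basement membranes, including those around brain capillaries. COL6A1 encodes a chain of type VI collagen, which forms beaded microfilaments next to basement membranes. TIMP3 is a secreted inhibitor of matrix metalloproteinases and of related membrane-bound proteases, and it is held in the matrix rather than diffusing freely. In brain most collagen lies in the meninges and around vessels. Estradiol sulfate is a conjugated estrogen that can be converted to estradiol by steroid sulfatase.

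The probes are 60-base oligonucleotides, and their sequences show which part of each message was read. In the 3 probes that follow, capitals mark the triplet GGN, a glycine codon, repeated at every ninth base. They were shown because this repeat is the coding signature of the triple helix.
COL3A1 probe 2 (A_70_P006991): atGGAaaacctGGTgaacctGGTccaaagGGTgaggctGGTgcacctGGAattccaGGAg
COL3A1 probe 3 (A_70_P048191): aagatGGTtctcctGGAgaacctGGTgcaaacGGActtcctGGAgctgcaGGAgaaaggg
COL4A1 probe (A_70_P047986): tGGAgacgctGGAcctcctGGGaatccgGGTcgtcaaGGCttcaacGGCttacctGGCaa
The repeat ran for 7, 6 and 7 triplets in these probes. A run of at least 6 such triplets occurred on the probe strand of 24 of 15008 probes (0.160%), and on the opposite strand of 0. The 7 of these 24 probes with a gene name were all named for collagens.

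The other 2 COL3A1 probes lie outside such a run and are almost the same oligonucleotide. They are shown because they give a repeat measurement of 1 stretch of the message, and capitals mark the 58 bases they share.
COL3A1 probe 1 (A_70_P016306): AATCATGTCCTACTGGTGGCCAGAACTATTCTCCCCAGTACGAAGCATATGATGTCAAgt
COL3A1 probe 4 (A_70_P016307): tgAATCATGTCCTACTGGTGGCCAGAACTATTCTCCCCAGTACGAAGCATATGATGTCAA
The COL6A1 and TIMP3 probes hold no such run either. The COL6A1 probes start 336 bases apart on 1 design transcript and share no sequence, so they read separate stretches of it.
COL6A1 probe 1 (A_70_P041682): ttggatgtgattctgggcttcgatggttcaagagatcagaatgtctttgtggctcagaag
COL6A1 probe 2 (A_70_P041681): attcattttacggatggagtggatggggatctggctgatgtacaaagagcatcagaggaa
TIMP3 probe (A_70_P021571): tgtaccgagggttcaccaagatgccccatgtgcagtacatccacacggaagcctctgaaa
The identity of the COL6A1 probes was not settled here: the design names their gene COL6A1 and describes the same transcript as the alpha 3 chain of type VI collagen. That chain is the product of COL6A3. COL6A1 is therefore used in all results and figures as the name in the design only, and which gene these probes read was not tested. RefSeq lists COL6A1 and COL6A3 as separate sheep genes. The COL4A1 probe and COL3A1 probe 3 carry a gene name only through a described likeness to the mouse and cattle proteins. The design gives these probes no genome position.

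Levels are log2 of processed intensity minus the log2 of that array's 75th percentile, so -5 is far below most probes and 0 is brighter than 75 percent of spots. That percentile was higher in 3 of the 4 treated fetuses than in any vehicle fetus: it ran from 1584 to 2251 intensity units after treatment and from 969 to 1610 with vehicle. The share of probes well above background, the scanner software's own call, was 77.0 to 83.1% in treated and 67.8 to 77.3% in vehicle fetuses. All arrays lay on 1 slide, treated fetuses down 1 column and vehicle fetuses down the other, so the effects of position and infusion cannot be told apart. Of 11748 probes that were well above background on at least 4 of 8 arrays and so tested, 0 passed an adjusted p of 0.05 with limma (0.00%), and the smallest adjusted p was 0.248. Without adjustment, 708 probes were higher after treatment at p under 0.05 (6.03%) and 356 were lower (3.03%). That split turned with the scaling, to 433 higher and 630 lower when arrays were scaled to their medians and to 344 and 760 in the authors' deposited values, which shift the median of all probes by -0.10. The 4 genes kept differences above 0 under both.

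COL3A1 had the brightest signal at probe 1, which read -5.05, -5.37, -5.10 and -5.33 in treated fetuses 1 to 4. In vehicle fetuses 1 to 4 it read -5.48, -6.10, -5.47 and -5.54. Every treated fetus lay above every vehicle fetus, and fetus 2 was the lowest of each group. The probe was well above background in 4 of 4 treated and 0 of 4 vehicle fetuses. The group means were -5.21 ± 0.16 (SD, n = 4) and -5.65 ± 0.30 (SD, n = 4), a measured difference of 0.43 with a standard error of 0.17 that did not pass the threshold (limma adjusted p = 0.516). The probe entered the test through the treated fetuses alone, and its vehicle values are not well above background. With readings raised to the lowest signal well above background on each array, a setting chosen after seeing the data, the difference was -0.03. Without vehicle fetus 2 the measured difference was 0.28. Of all tested probes, 3.15% had every treated fetus above every vehicle fetus, and 2.77% the opposite. In a piece of whole tissue, fewer cells of a type and less RNA per cell cannot be told apart, here and in the results that follow.

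The other COL3A1 probes were also dim, and their groups overlapped. Probe 2 read -5.21, -5.28, -5.33 and -5.45 in treated and -5.76, -6.00, -5.08 and -5.73 in vehicle fetuses. Vehicle fetus 3 was the highest of all at this probe, and the difference was 0.33 with a standard error of 0.19 (limma adjusted p = 0.651). It was 0.21 without vehicle fetus 2 and 0.51 without vehicle fetus 3. Probe 3 read -5.51, -5.18, -5.59 and -5.40 in treated and -5.49, -5.86, -5.34 and -5.77 in vehicle fetuses, a difference of 0.19 with a standard error of 0.15 (limma adjusted p = 0.760), and of 0.11 without treated fetus 2 or without vehicle fetus 2. Both probes were well above background in treated fetuses 1 to 3 and in 1 vehicle fetus each. Probe 4 was above background on 3 arrays, too few to be tested with the rest. It read -5.39, -5.47, -5.60 and -6.04 in treated and -5.88, -7.28, -5.97 and -6.90 in vehicle fetuses. Its reading in vehicle fetus 4 is a surrogate value that the scanner software sets near background. Probes 1 and 4, with 58 of 60 bases in common, were well above background in 0 of 4 vehicle fetuses each, so no difference between the 2 probes is read from them. With normexp background correction and quantile normalisation their group differences were 0.09 and 0.05.

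COL4A1, the basement membrane collagen, was well above background in all 8 fetuses. It read -3.57, -3.74, -3.95 and -3.82 in treated fetuses 1 to 4 and -4.12, -3.94, -4.15 and -4.18 in vehicle fetuses 1 to 4. Treated fetuses 1, 2 and 4 lay above every vehicle fetus, while treated fetus 3 lay just below vehicle fetus 2. The means were -3.77 ± 0.16 and -4.10 ± 0.11 (SD, n = 4 each), a difference of 0.33, or 1.25-fold, with a standard error of 0.12 and a 95% confidence interval of 0.05 to 0.60. The difference did not pass the threshold (limma adjusted p = 0.505, exact two-sided permutation p = 0.0571, where 4 against 4 fetuses cannot go below 0.0286). It was 0.20 with quantile normalisation and 0.09 with cyclic loess. As intensity before scaling, the probe ran from 112 to 152 units in treated and from 53.3 to 96.6 units in vehicle fetuses.

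COL6A1 was well above background in the treated fetuses only, so its difference has no measured vehicle level behind it. Probe 1 read -5.43, -5.70, -5.36 and -4.66 in treated fetuses and -6.23, -6.27, -6.30 and -6.91 in vehicle fetuses. The groups did not overlap, and both extremes came from fetus 4 of their group. The means were -5.29 ± 0.44 and -6.43 ± 0.32 (SD, n = 4 each), and the measured difference was 1.14 with a standard error of 0.24, which did not pass the threshold (limma adjusted p = 0.382). With the floor at the lowest signal well above background it was -0.05. Probe 1 was well above background in 4 of 4 treated and 0 of 4 vehicle fetuses, a pattern that 124 of all 15008 probes had (0.826%) and 0 had in reverse (0.00%). Such a probe enters the test through the treated fetuses alone.

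No fold change is given for probe 1 of COL3A1 or COL6A1. With each vehicle value raised to the lowest signal well above background on its array, the vehicle means would be -5.19 and -5.23, which leaves a ratio under 1 for both. That lowest signal was 28.9, 24.8, 28.9 and 35.3 intensity units in the treated and 31.9, 37.1, 32.9 and 38.6 in the vehicle fetuses. Relative to the 75th percentile it was higher in vehicle fetuses 2, 3 and 4 than in any treated fetus. The COL6A1 vehicle signals themselves were 21.4, 19.1, 16.5 and 8.07 units, against 39.2, 39.3, 54.9 and 62.7 in treated fetuses. COL6A1 probe 2 was well above background on 1 array, that of treated fetus 2, and was not tested with the rest. It read -5.74, -5.55, -5.98 and -5.49 in treated and -7.13, -6.63, -6.81 and -5.64 in vehicle fetuses, so treated fetuses 2 and 4 exceeded every vehicle fetus. Vehicle fetus 4, the lowest of all at probe 1, was the highest of its group at probe 2.

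TIMP3 was the brightest of the 4 genes and well above background in all 8 fetuses. It read -2.45, -2.51, -2.67 and -3.28 in treated fetuses 1 to 4 and -3.13, -3.57, -2.91 and -3.49 in vehicle fetuses 1 to 4. Treated fetuses 1 to 3 lay above every vehicle fetus, and treated fetus 4 lay within the vehicle range. The means were -2.73 ± 0.38 and -3.27 ± 0.31 (SD, n = 4 each), a difference of 0.55, or 1.46-fold, with a standard error of 0.22 and a 95% confidence interval of 0.05 to 1.04. This did not pass the threshold (limma adjusted p = 0.526, exact two-sided permutation p = 0.0857). Unscaled intensity was 163 to 359 units in treated and 86.5 to 184 units in vehicle fetuses.

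**Figure D1:**
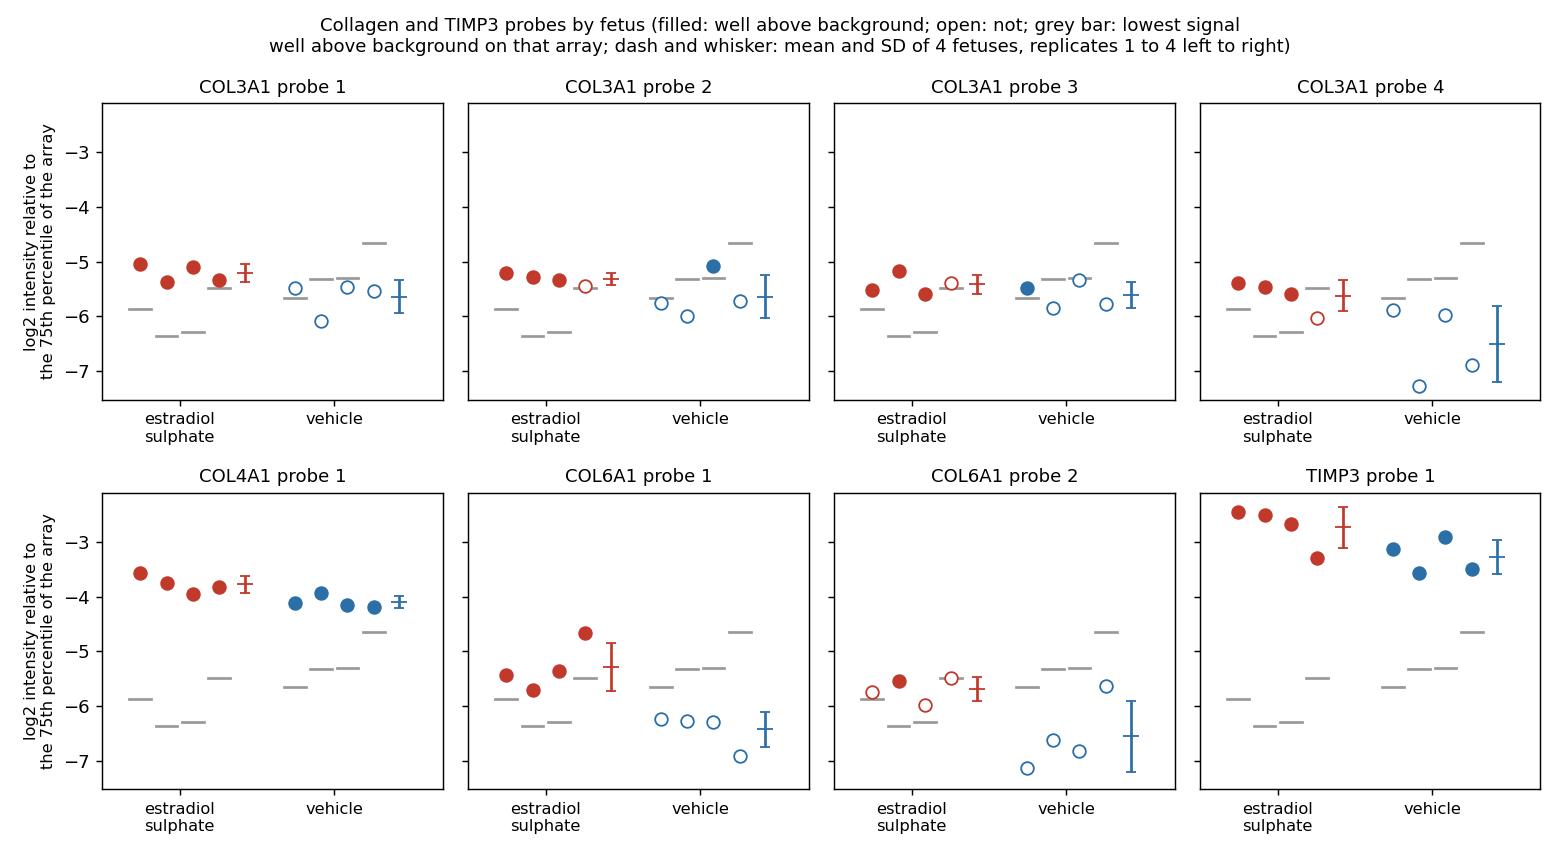
Level of each of the 8 probes by fetus, as log2 of processed intensity relative to the 75th percentile of the array, with filled points well above background and open points not; grey bars mark the lowest signal well above background on each array, and dashes with whiskers the mean and SD of 4 fetuses. Groups separate at COL3A1 probe 1 and COL6A1 probe 1, where the vehicle points are all open, and overlap at the other 6 probes.

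The 8 probes and 4 fetuses of a group give 32 readings, of which 26 were well above background in treated and 10 in vehicle fetuses. Over all 15008 probes the shares were 80.8% in treated and 73.0% in vehicle fetuses. By fetus the count of probes was 7, 8, 7 and 4 in treated fetuses 1 to 4 and 3, 2, 3 and 2 in vehicle fetuses. The highest reading was from a treated fetus at 7 of 8 probes, and the lowest from a vehicle fetus at 8 of 8. Over all probes these shares were 47.7% and 54.6%, and among tested probes in the dimmest of 5 equal bins by mean level 63.0% and 79.2%. Probes of 1 gene share their target, so these are not independent readings. Tested probes numbered 6, and 2 of these, COL3A1 probe 1 and COL6A1 probe 1, qualified through the treated fetuses alone. Their background calls therefore had to differ between the groups.

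By those 5 bins, the tested probes of COL3A1, COL4A1 and COL6A1 all fell in bin 1, the dimmest, and TIMP3 fell in bin 2. Differences across the array varied with brightness. The median difference was 0.20, 0.10, 0.06, 0.00 and -0.12 from bin 1 to bin 5. In bin 1, 77.6% of probes had a difference above 0, 15.0% were higher at an unadjusted p under 0.05, and 7.07% had every treated above every vehicle fetus. In bin 2 these shares were 71.7, 6.51 and 3.87%. The part of array brightness in the differences of the 4 genes was not tested.

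**Figure D2:**
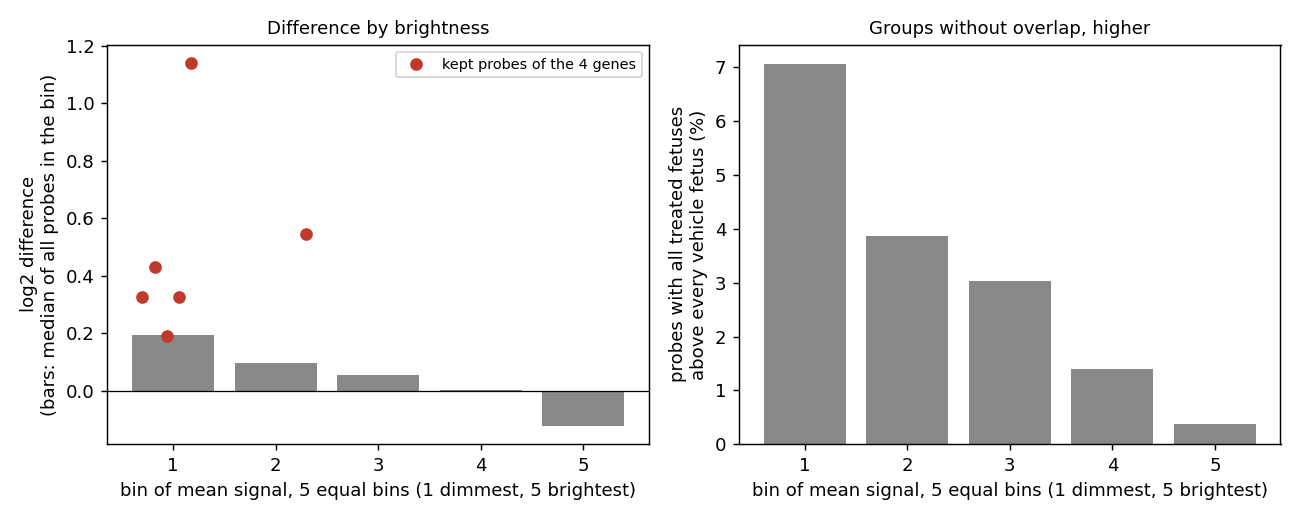
By bin of mean signal, from 1 (dimmest) to 5 (brightest): on the left the median difference in log2 level, treated minus vehicle, as bars, with tested probes of the 4 genes as red points, spread sideways only for sight, and on the right the percentage of probes with every treated above every vehicle fetus. The median falls from 0.20 to -0.12 and the percentage from 7.07 to 0.383, and the red points lie in bin 1 except TIMP3 in bin 2.

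The size of the differences changed with the processing. Quantile normalisation alone gave 0.18 for COL3A1 probe 1, 0.20 for COL4A1 and 0.43 for TIMP3, and cyclic loess gave 0.41, 0.09 and 0.40. With both normexp background correction and quantile normalisation the difference was 0.09 for COL3A1 probe 1, 0.01 for COL4A1, 0.26 for COL6A1 probe 1 and 0.27 for TIMP3. Under that setting every treated fetus lay above every vehicle fetus at COL6A1 probe 1. At COL3A1 probe 1 this held for 2 treated fetuses, at COL4A1 for 1 and at TIMP3 for 3. COL6A1 probe 1 was well above background in 0 of 4 vehicle fetuses, so its order rests on vehicle readings that are not. Under the main scaling 7.07% of probes in bin 1 had every treated above every vehicle fetus. COL4A1 and TIMP3 kept their differences of 0.33 and 0.55 with the floor at background, because all their readings were above that signal.

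**Figure D3:**
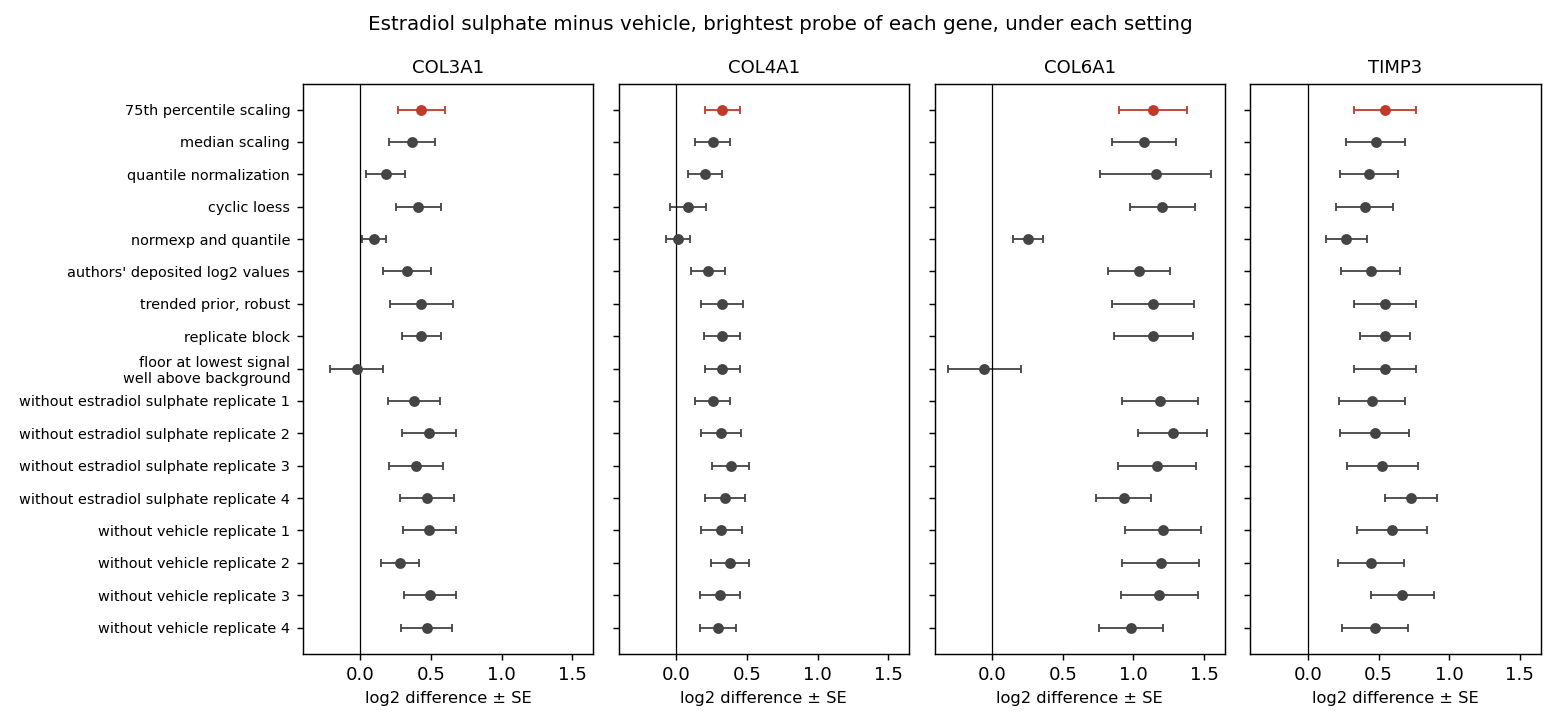
Difference in log2 level, treated minus vehicle, for the probe standing for each gene under each processing setting, with whiskers of 1 standard error. COL6A1 runs from 1.14 to -0.05 and COL3A1 from 0.43 to -0.03 between the main scaling and the floor at background, where TIMP3 stays at 0.55 and COL4A1 at 0.33.

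Other genes of the extracellular matrix were read from a list of 85 collagens, inhibitors, proteases, glycoproteins, collagen-making enzymes, receptors and signals that includes the 4 genes. Of these, 36 were named on the array, and 28 were tested through their brightest probe. In 24 of the 28 the difference was above 0 (85.7%), against 57.5% of all tested probes, and the median was 0.23 against 0.04. The 28 genes were spread over all 5 bins of mean level, and in the 2 dimmest bins the share of probes above 0 was 77.6% and 71.7%. With normexp the median was 0.09, and 19 of 28 differences were above 0. At an unadjusted p under 0.05, 8 of the 28 genes were higher and 0 lower, against 6.03% and 3.03% of all tested probes and 15.0% higher in the dimmest bin. The 8 include the 4 genes described, of which COL3A1 and COL6A1 entered through the treated fetuses alone. None passed an adjusted p of 0.05 with limma. Without the 4 genes, 20 of 24 were above 0 with a median of 0.18, and with normexp 15 of 24 with a median of 0.06.

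All 6 other collagens of the list that were tested had a difference above 0, with a median of 0.26. The share above 0 was 57.5% of all tested probes, and 77.6% and 71.7% in the 2 dimmest bins, which hold COL1A2 and COL1A1. COL2A1, COL4A2 and COL5A2 fell in bin 3 and COL12A1 in bin 4. Of the 6, 4 were above 0 with normexp, and 5 with median, quantile or loess scaling and in the deposited values of the authors. Outside the list, COL16A1 gave -0.11 and COL4A3 gave 0.74. COL2A1, the fibrillar collagen of cartilage, had a difference of 0.52 with a standard error of 0.21, while its other probe gave 0.17. COL1A1, a chain of type I collagen, gave 0.24 with a standard error of 0.11, and 0.10 with normexp. Its 4 treated fetuses lay above every vehicle fetus, as at 3.15% of all tested probes and 3.87% of those in bin 2, where it fell. COL1A2, the other chain of type I collagen, gave 0.29 with a standard error of 0.20, and -0.08 with normexp. COL4A2, which winds with COL4A1 into the same type IV helix, gave 0.04 with a standard error of 0.18. COL12A1 and COL5A2, which associate with or join fibrils, gave 0.35 and 0.23.

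The other inhibitors had differences near or below 0. TIMP1, a soluble inhibitor, gave -0.25 with a standard error of 0.19, and its other probe -0.26. TIMP2, which also takes part in activating MMP2, gave 0.02 with a standard error of 0.23. Among the proteases that TIMPs inhibit, the collagenase MMP13 gave 0.26, the gelatinase MMP2 0.04 and the membrane-bound MMP14 -0.23, with 0.21 at the other MMP14 probe. MMP1, MMP7 and MMP9 were above background on too few arrays to be tested. The proteoglycans decorin (DCN) and biglycan (BGN), which bind collagen fibrils, gave 0.43 and 0.07.

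Among receptors and signals 9 of 11 genes tested were above 0, or 8 with normexp, against 57.5% of all tested probes. In the 2 dimmest bins, which hold KDR, SMAD3, ITGAV, TGFB1 and SMAD4, that share was 77.6% and 71.7%. At an unadjusted p under 0.05, 3 of the 11 were higher, against 6.03% of all tested probes. CCN2, a matricellular protein that transforming growth factor beta induces, gave 0.65 with a standard error of 0.27. TGFB2, a transforming growth factor beta ligand, gave 0.62 with a standard error of 0.25. VEGFA, the endothelial growth factor, gave 0.60 with a standard error of 0.26, and its receptor KDR gave 0.31. The ligand TGFB1 gave 0.13 and the receptor TGFBR2 0.06, and the intracellular mediators SMAD2 and SMAD3 gave -0.09 and -0.10. The integrin chains ITGAV and ITGB1, which bind matrix proteins at the cell surface, gave 0.19 and 0.16. No gene of the collagen-making enzymes on the list was named on the array.

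**Figure D4:**
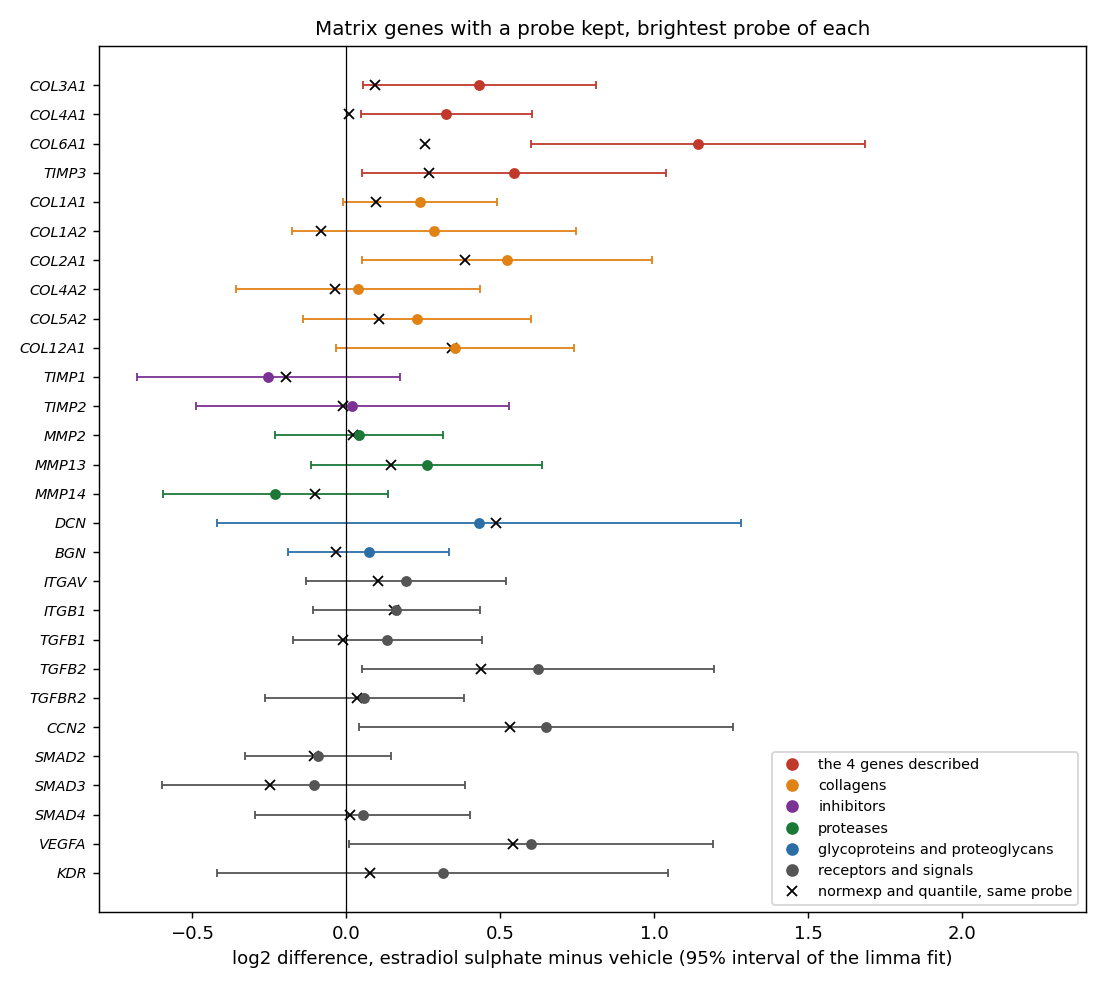
Difference in log2 level, treated minus vehicle, with its 95% confidence interval from the limma fit, for the 28 tested matrix genes by role; crosses give the same probe with normexp. Of these 24 lie above 0, and TIMP1 at -0.25 and TIMP3 at 0.55 lie on opposite sides.

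Ratios between related genes within an array cancel a constant scaling of that array, but they move with background correction and with normalisation that depends on brightness. They were chosen after the values of both genes were seen, and their p-values were adjusted over the 5 ratios computed. The TIMP3 to TIMP1 log2 ratio ran from -5.27 to -4.20 in treated and from -6.19 to -5.09 in vehicle fetuses. The groups overlapped, and the difference was 0.80 (exact two-sided permutation p = 0.0857, adjusted p = 0.190). The TIMP3 to TIMP2 ratio differed by 0.52 and the COL4A1 to COL4A2 ratio by 0.29 (exact two-sided permutation p = 0.0857 and 0.114, adjusted p = 0.190 for both). COL3A1 differed by 0.19 relative to COL1A1 and by 0.15 relative to COL1A2 (exact two-sided permutation p = 0.257 and 0.800, adjusted p = 0.321 and 0.800). These 2 ratios use COL3A1 probe 1, well above background in 0 of 4 vehicle fetuses, so their vehicle values have no measured COL3A1 level behind them. None of the 5 passed the adjusted threshold. With normexp and quantile normalisation the TIMP3 ratios differed by 0.46 to TIMP1 and 0.28 to TIMP2, and COL4A1 to COL4A2 by 0.05. COL3A1 then differed by -0.0015 to COL1A1 and by 0.18 to COL1A2.

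Cell types that make these genes were followed by marker lists. Summed levels are given on the linear scale, as intensity divided by the 75th percentile of the array, while differences are in log2. Of 6 fibroblast and meningeal markers 4 were on the array, and their summed level relative to the 75th percentile was 53.6 to 57.3 in treated and 54.6 to 85.6 in vehicle fetuses. That sum is mostly PTGDS, a prostaglandin synthase of the meninges, which differed by -0.36, while COL1A1, COL1A2 and DCN of the same list differed by 0.24, 0.29 and 0.43. Of 8 endothelial markers 5 were on the array, with a summed level of 2.34 to 2.97 in treated and 2.12 to 2.72 in vehicle fetuses. Both pairs of ranges overlapped, and the median difference over the tested markers was 0.26 in each list. Within the endothelial list PECAM1 differed by 0.21, KDR by 0.31 and the glucose transporter SLC2A1, the brightest, by 0.01. FLT1, a receptor of VEGFA, was well above background in 4 of 4 treated and 0 of 4 vehicle fetuses. Among 6 astrocyte markers 4 were on the array, with a summed level of 21.7 to 43.9 in treated and 15.1 to 38.9 in vehicle fetuses. None of the listed markers of pericytes, neurons or oligodendrocytes was named there. Hypothalamic peptides marked the tissue in both groups: 6 of 7 were on the array, with a summed level of 13.6 to 41.0 in treated and 21.9 to 35.5 in vehicle fetuses. Single peptides differed in both directions. The appetite peptides AGRP and NPY differed by 3.66 and 1.60, GHRH, which releases growth hormone, by 2.57 and POMC by 1.27, while oxytocin (OXT) differed by -0.88 and somatostatin (SST) by -0.30. AGRP and GHRH were well above background in 2 of 4 vehicle fetuses, and none of the 6 passed the adjusted threshold with limma. The choroid plexus marker TTR, on the same linear scale, ran from 0.115 to 6.36 in treated and from 0.545 to 0.765 in vehicle fetuses. The part of these markers and peptides in the differences of the 4 genes was not tested.

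Among 689 other named genes, those whose levels followed each gene most closely over the 8 arrays were ranked by Pearson's r, as a description. The arrays share a slide and the 2 groups, so a gene that differs between groups tends to rank high. COL3A1 probe 1, COL6A1 probe 1, NOX1 and ACE were well above background in 0 of 4 vehicle fetuses. LHCGR was well above background in 1 of 4 vehicle fetuses and PGR in 2 of 4. The r values of COL3A1 and COL6A1, and that of PGR with COL4A1, therefore rest in part on readings that are not well above background. For COL3A1 these were PRND (0.946), LHCGR (0.915) and NOX1 (0.910). COL4A1 was followed by ALDOA (0.943), PGR (0.894) and DERL1 (0.883). COL6A1 was followed by PUS1 (0.937), ACE (0.911) and CLDN3 (0.891). For TIMP3 they were IL13RA1 (0.909), CSNK1E (0.896) and CPE (0.891). Without the 2 arrays farthest from the median, r was 0.620 to 0.746 for the genes ranked with COL3A1 and 0.741 to 0.844 with COL6A1. It was then 0.869 to 0.926 for those ranked with COL4A1 and 0.810 to 0.914 with TIMP3.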

How the data were processed

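Per the file headers, spot intensity came from Agilent Feature Extraction 10.1.1.1 as processed intensity, background-subtracted and detrended within each array and not normalised between arrays. The authors also deposited log2 values, which equal log2 of that intensity minus 1 constant per array. How that constant was chosen is not stated in the sources used here, and these values served as an alternative.

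Control spots were left out and spots of 1 probe averaged. Log2 intensity minus the 75th percentile of each array was fitted by group with lmFit and eBayes of limma 3.58.1 under R 4.3.3, with Benjamini-Hochberg adjustment over the 11748 probes well above background on at least 4 of 8 arrays, at 0.05. The code was tested on simulated data. Single values also got an exact permutation test over fetuses. The brightest probe stands for a gene. Gene names came from the array design and RefSeq (1411 of 15008 probes, 872 names). Sequences came from the array design. Genes named in the text are the 4 genes, up to 10 tested genes of each role of the matrix list by smallest p, and the 3 genes most correlated with each of the 4. The members and lists were chosen with earlier results of these data known. With 4 arrays a group, their number limits the precision. Alternatives were other scalings, background corrections, filters, a moderated variance with trend, a replicate block and leaving out each fetus.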

Additional observations from a re-analysis of the deposited data

Results flagged for a closer look

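In 2 of the 16 sets of 4 readings (8 probes, 2 groups), 1 fetus stood far from the other 3, beyond Dixon's critical gap. At COL3A1 probe 1, vehicle fetus 2 read -6.10, against -5.54 to -5.47 in the other vehicle fetuses. At COL6A1 probe 1, vehicle fetus 4 read -6.91, against -6.30 to -6.23 in the others. Chance alone flags about 1 in 20 such sets. Both readings were below the level called well above background, and they were the lowest of all 8 fetuses at their probe.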

How the results depend on the processing

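No probe passed an adjusted p of 0.05 with limma under any of the alternatives run. Over them the adjusted p ran from 0.315 to 0.986 for COL3A1, 0.307 to 0.993 for COL4A1, 0.244 to 0.977 for COL6A1 and 0.329 to 0.862 for TIMP3. Leaving out each fetus gave differences of 0.28 to 0.49, 0.26 to 0.38, 0.93 to 1.28 and 0.45 to 0.73 for these genes, 0.21 to 0.51 and 0.11 to 0.28 for COL3A1 probes 2 and 3, and medians of 0.18 to 0.25 for the matrix list. With the floor at background the difference was -0.0265 for COL3A1 probe 1, -0.14 for probe 2, -0.23 for probe 3 and -0.0542 for COL6A1 probe 1. By construction, readings below it then carry the floor of their array. COL3A1 probe 2 gave -0.0409 and the matrix median 0.0862 with normexp, and COL3A1 probe 3 gave -0.0788 with quantile normalisation. The cause was not tested. COL3A1 and COL6A1 have no value where all 8 arrays must be above background.

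At an unadjusted p under 0.05, higher and lower probes numbered 708 and 356. They were 433 and 630 with median scaling, 396 and 297 with quantile normalisation, 448 and 338 with cyclic loess, 418 and 332 with normexp, and 344 and 760 with the authors' deposited values. They were 460 and 382 where all 8 arrays had to be above background, 886 and 1218 with no filter, 500 and 189 without treated fetus 2, and 466 and 340 without vehicle fetus 2.

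Same-numbered fetuses correlated at 0.237, -0.01, 0.191 and 0.247 in their deviations from the group means. Differently numbered fetuses correlated at -0.356 to 0.211. For vehicle fetuses 1, 3 and 4 the treated fetus with the highest correlation was the same-numbered one. Equal numbers also share a row of the slide, so these values cannot decide whether they mark twins. The labels do not say so, and the number was not used as a pairing in the main fit. With the replicate block the differences stayed the same, the counts were 789 and 369, and 0 probes passed (adjusted p = 0.437 for COL3A1, 0.494 for COL4A1, 0.410 for COL6A1 and 0.440 for TIMP3). Depth is limited by signal over background: COL3A1 and COL6A1 lie at its edge.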

Other observations

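Most probes with the collagen glycine repeat carry no gene name: 17 of the 24. All 24 were bright enough to be tested, and 21 had a difference above 0, with a median of 0.18, or 0.06 with normexp. Of all tested probes 57.5% were above 0, and 77.6% and 71.7% in the 2 dimmest of 5 bins of mean level. Among the 17 without a name 14 were above 0, with differences from -0.41 to 0.47 and a median of 0.16. At an unadjusted p under 0.05 there were 2 of the 24, the COL4A1 probe and 1 without a name, against 9.06% of all tested probes, and 0 passed an adjusted p of 0.05 with limma. The repeat also occurs in proteins with a collagen-like domain, so an unnamed probe need not be a collagen.

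Collagen genes outside the list were also named on the array. COL4A3, a chain of a second type IV network, was well above background in all 8 fetuses and gave a difference of 0.74 with a standard error of 0.30 (limma adjusted p = 0.528), and 0.47 with normexp. COL16A1, which associates with fibrils, gave -0.11 with a standard error of 0.20 (limma adjusted p = 0.915). Both were chosen after their values were seen.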
